A study of Homo sapiens with 4 samples.

Results

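The 9 genes described here belong to AP-1 and the immediate early response, in HCC1954 cells depleted of ZDHHC15. They were FOS, FOSB, FOSL1, FOSL2, JUN, JUNB, JUND, ATF3 and EGR1, taken by symbol from a table of 58735 genes, in which each of the 9 has 1 row. The line, HCC1954, is an established breast carcinoma line with amplified ERBB2. Total RNA was sequenced from 2 samples of shCON, cells that received a scrambled GIPZ hairpin vector, and from 2 samples of shZDHHC15, cells that received a GIPZ hairpin vector against ZDHHC15. ZDHHC15 is a palmitoyltransferase that the study connects with Hippo/YAP signaling. Both groups were grown in the same serum-containing medium without a further agent. The labels call the knockdown stable in one place and in another describe transient transfection with harvest after 36 h. They do not say whether the shZDHHC15 samples 1 and 2 are repeat cultures or different hairpins, and p-values therefore measure the spread between these samples, which may be technical.

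The FOS and JUN proteins are basic leucine zipper (bZIP) transcription factors that bind DNA in pairs, FOS proteins with a JUN partner, and together form AP-1. ATF3 is a stress-induced bZIP factor that also pairs with JUN proteins, whereas EGR1 is a zinc finger factor induced by the same growth factor and MAPK signals. Many of these genes are immediate early genes, whose transcription starts within minutes of a stimulus without new protein synthesis. In epithelial cancers AP-1 acts at enhancers together with YAP and the TEAD factors.

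Promoter sequences are shown first, since the factors are known to act on their own genes. RefSeq (GRCh38.p14) windows were found for 8 of the 9 genes and covered 9 transcription starts, because ATF3 has 2, and FOSL1 was not among them. For some genes the RefSeq start differs from the bounds of the gene as counted. The JUN and FOSL2 windows and the window of the second ATF3 start lie wholly inside those bounds. The windows below hold the 250 bases before the start and are shown for the genes with a complete element and for FOS, the founding member. Capitals mark matches on either strand to the motifs described after them. The FOS window is chr14:75278578-75278827 (plus strand), the JUN window chr1:58784048-58784297 (minus strand), the JUND window chr19:18281623-18281872 (minus strand), the window of the first ATF3 start chr1:212565157-212565406 (plus strand) and the EGR1 window chr5:138465229-138465478 (plus strand).
FOS: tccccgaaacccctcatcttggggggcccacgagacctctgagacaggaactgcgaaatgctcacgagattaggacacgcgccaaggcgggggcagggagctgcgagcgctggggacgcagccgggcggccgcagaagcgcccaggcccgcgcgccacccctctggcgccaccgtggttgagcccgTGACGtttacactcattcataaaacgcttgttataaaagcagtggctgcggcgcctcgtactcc
JUN: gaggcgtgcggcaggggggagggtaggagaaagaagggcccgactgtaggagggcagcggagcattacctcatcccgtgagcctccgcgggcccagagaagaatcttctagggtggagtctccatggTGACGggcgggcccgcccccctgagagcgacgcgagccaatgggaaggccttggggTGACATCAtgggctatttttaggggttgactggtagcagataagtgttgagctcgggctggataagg
JUND: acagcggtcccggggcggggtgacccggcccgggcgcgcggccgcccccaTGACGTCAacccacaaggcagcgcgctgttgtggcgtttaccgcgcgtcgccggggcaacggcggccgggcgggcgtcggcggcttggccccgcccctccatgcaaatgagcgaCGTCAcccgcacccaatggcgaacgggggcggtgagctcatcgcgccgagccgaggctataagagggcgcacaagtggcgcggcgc
ATF3: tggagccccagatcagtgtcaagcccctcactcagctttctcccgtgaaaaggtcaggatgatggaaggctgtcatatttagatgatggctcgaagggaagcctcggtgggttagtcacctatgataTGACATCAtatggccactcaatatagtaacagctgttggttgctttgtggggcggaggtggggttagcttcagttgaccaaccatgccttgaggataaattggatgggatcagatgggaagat
EGR1: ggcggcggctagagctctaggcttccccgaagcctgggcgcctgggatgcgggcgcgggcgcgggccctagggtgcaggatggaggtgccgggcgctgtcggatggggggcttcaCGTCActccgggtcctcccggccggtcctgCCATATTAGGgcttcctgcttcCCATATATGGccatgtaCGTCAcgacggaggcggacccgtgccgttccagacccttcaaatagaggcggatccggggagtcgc

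Both strands of the 250 bases were searched for the AP-1 site TGAGTCA, the cAMP response element (CRE) TGACGTCA, the TEAD site GGAATG and the CArG box bound by SRF. The CRE core TGACG, which lies within the full CRE, and the JUN-type element TGACATCA were added after the sequences had been seen. The AP-1 site and the TEAD site had 0 matches in the 9 windows and were held by 4.2% and 11.9% of all 35116 RefSeq windows of the same length. The full CRE matched in 1 window, that of JUND from base -200 to -193 before the start, and in 1.65% of all windows. The CRE core matched in 7 of 9 windows, all but those of ATF3, against 21.2% of all windows. TGACATCA matched in the JUN window (-67 to -60) and in the first ATF3 window (-123 to -116), against 2.37% of all windows. Both were added after these windows had been seen, so their shares beside all windows carry no weight. The 7 windows with the core held 62.0% to 74.8% G or C, against a median of 58.0% over all windows. A pair of CArG boxes lay in the EGR1 window (-105 to -96 and -83 to -74), and 1.16% of all windows held at least 1. Bases farther upstream than 250 were not searched, so a gene without a match here may hold one there. These matches are a description of letters in the window and not evidence of binding.

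**Figure D1:**
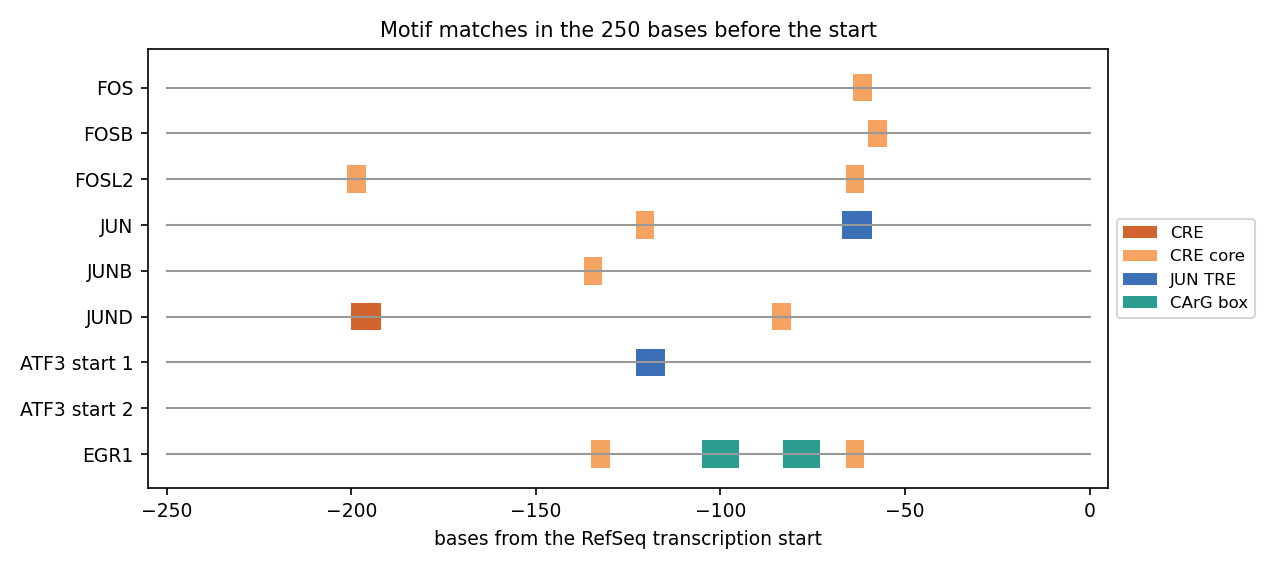
Positions of motif matches in the 9 promoter windows. The horizontal axis is the distance in bases from the RefSeq transcription start, each grey line is 1 window of 250 bases, and coloured blocks are matches to the full CRE, the CRE core, the JUN-type element (JUN TRE) and the CArG box. The CRE core is spread over 7 windows, and of these windows only that of EGR1 holds CArG boxes. Bases farther upstream were not searched.

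The counts on genes summed to between 17560982 and 19118704 per sample, and the 9 genes took 0.272% and 0.278% of them in shCON and 0.214% and 0.227% in shZDHHC15. ZDHHC15, the target of the hairpin, had 17617 and 15716 counts in shCON and 0 counts in both shZDHHC15 samples, at least 6045-fold lower against a floor of 3 counts per library. A count of 0 allows up to 3 counts (0.153 to 0.178 CPM, counts scaled to library size), and this limit holds for counting error alone. Why no read of ZDHHC15 was left in either shZDHHC15 sample was not tested. Counts scaled by TMM factors were compared in edgeR (quasi-likelihood) over 15817 genes, and a gene was called where its Benjamini-Hochberg adjusted p was under 0.05. Of all genes tested, 42.0% were called, 21.7% higher and 20.3% lower in shZDHHC15, with a median log2 fold change of 0.02. The balance of the 2 directions depends on the scaling, from 3427 genes higher and 3217 lower here to 3926 and 2545 with library size only and 3202 and 3458 with upper-quartile factors. For a single gene, an exact permutation test of 2 against 2 samples stops at p = 0.333 (two-sided), and calls at this size depend on the spread that edgeR shares among genes. In bulk RNA, fewer cells of a type and less RNA per cell cannot be told apart.

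Epithelial markers were abundant in all samples, and their summed level was 19470 to 21002 CPM in shCON and 11739 to 11961 CPM in shZDHHC15. Of these 8 markers, 6 were lower in shZDHHC15 (75%, against 20.3% of all genes tested) and 1 was higher (12.5%, against 21.7%). Those lower included KRT8 (log2 fold change -1.62), KRT18 (-1.58) and KRT7 (-0.99), KRT19 was higher (0.44) and CDH1 was not called (-0.05). The 11 leukocyte markers summed to 2.19 to 3.12 CPM over all samples, with CD3D, CD3E and MS4A1 among those at 0 counts throughout. The 8 fibroblast markers summed to 26.3 to 33.2 CPM in shCON and 37.1 to 41.0 CPM in shZDHHC15, with LUM at 0 counts throughout and most of the sum from FAP. Of 8 stress genes, 2 were higher (25%, against 21.7% of all genes tested) and 4 lower (50%, against 20.3%). HSPA1A (0.71) and HSPA1B (0.94) were higher, HSPA6 (-2.25), GADD45B (-1.80), CHAC1 (-1.16) and TRIB3 (-0.49) were lower, and DNAJB1 and DDIT3 were not called. The part of these shifts in the values below was not tested.

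All 9 genes passed the filter on low counts. Of these, 7 were called (77.8%, against 42.0% of all genes tested), 5 lower (55.6%, against 20.3%) and 2 higher (22.2%, against 21.7%) in shZDHHC15. The 9 were chosen with earlier results of these data known and are abundant transcripts, so these shares are a description alone. ATF3 and FOSL1 fell the most, JUN, JUND and JUNB fell by less, EGR1 and FOSL2 rose slightly, and FOS and FOSB did not pass the test. The median log2 fold change of the 9 was -0.33. The CPM ranges of the groups did not overlap for any of the 9, as for 72.5% of all genes tested, and for FOSB they nearly touched.

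**Figure D2:**
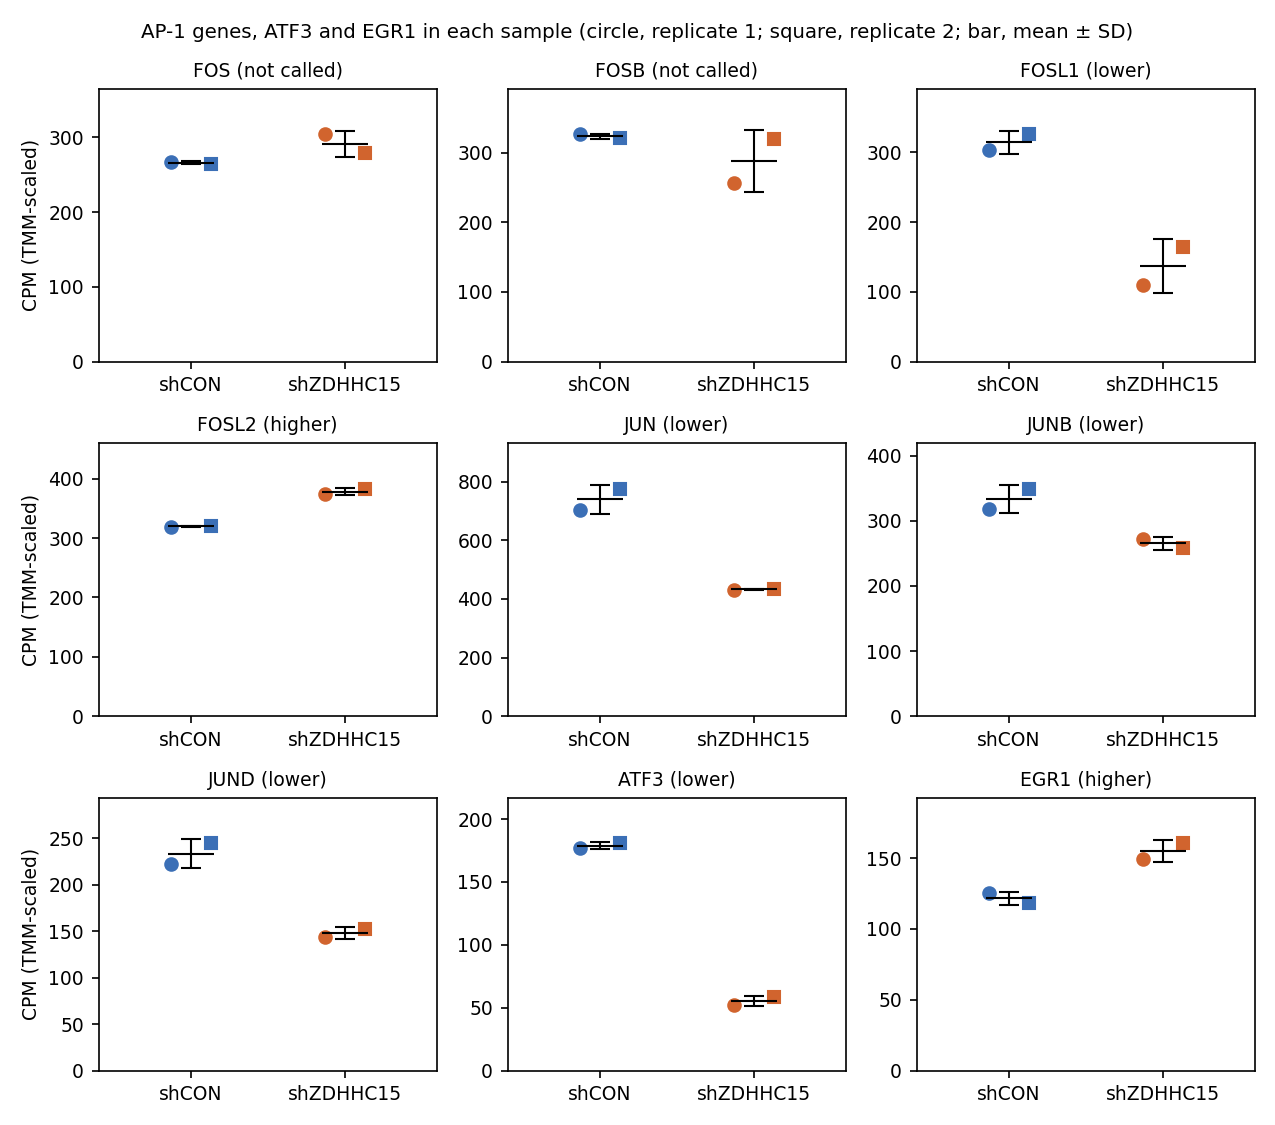
TMM-scaled CPM (vertical axes, from 0) of the 9 genes, 1 panel each, in shCON (blue) and shZDHHC15 (orange), where circles are sample 1, squares are sample 2 and bars are the mean ± SD. ATF3 lies at 177 and 181 CPM in shCON and at 52.4 and 58.4 CPM in shZDHHC15. The points of FOS lie close together, and those of FOSB do except shZDHHC15 sample 1, at 256 CPM.

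Among the JUN genes, which supply the partner that FOS proteins need to bind DNA, all 3 were lower in shZDHHC15. JUN (ENSG00000177606, chr1:58780788-58784327, minus strand, GRCh38) had 12843 and 13077 counts in shCON and 8039 and 8522 counts in shZDHHC15, or 704 and 775 CPM against 432 and 434 CPM. Both shZDHHC15 samples lay well below both shCON samples and almost level with each other. The group means were 740 ± 50.1 and 433 ± 1.70 CPM (SD, n = 2), a 1.71-fold fall (log2 fold change -0.77, standard error 0.0882, adjusted p = 7.69e-06 by edgeR's quasi-likelihood test).

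JUND (ENSG00000130522, chr19:18279760-18281622, minus strand), the JUN gene usually regarded as expressed constantly, had 4060 and 4127 counts in shCON and 2678 and 2995 in shZDHHC15. Its level was 223 and 245 CPM in shCON and 144 and 153 CPM in shZDHHC15, again without overlap. The fall was 1.58-fold (log2 fold change -0.66, standard error 0.0939, adjusted p = 6.32e-05 by edgeR).

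JUNB (ENSG00000171223, chr19:12791496-12793315, plus strand), a weaker activator than JUN that can hold JUN's activity down, had 5810 and 5885 counts in shCON and 5076 and 5068 in shZDHHC15. Its level was 319 and 349 CPM in shCON and 273 and 258 CPM in shZDHHC15, close to each other but without overlap. The fall of 1.26-fold was the smallest of the 5 (log2 fold change -0.33, standard error 0.0907, adjusted p = 0.00893 by edgeR), and without shZDHHC15 sample 2 it was no longer called (log2 fold change -0.30, adjusted p = 0.0994). HOOK2, on the opposite strand, overlaps 259 of its 1820 exon bases (14.2%) and had 567 and 524 counts in shCON and 640 and 761 in shZDHHC15. Whether counting used the strand is not given in the sources used here.

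The 4 FOS genes did not move together. FOSL1 (ENSG00000175592, chr11:65892049-65900573, minus strand) encodes FRA-1, a FOS protein prominent in invasive breast cancer cells. It had 5519 and 5493 counts in shCON and 2041 and 3219 in shZDHHC15, or 303 and 326 CPM against 110 and 164 CPM. Both shZDHHC15 samples were far below shCON, and sample 1 was lower than sample 2. The mean went from 314 ± 16.2 to 137 ± 38.4 CPM, a 2.30-fold fall (log2 fold change -1.20, standard error 0.140, adjusted p = 9.57e-06 by edgeR), with values from -1.52 to -0.94 when 1 sample was left out.

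FOSL2 (ENSG00000075426, chr2:28392448-28417312, plus strand), which encodes FRA-2, had 5815 and 5405 counts in shCON and 6957 and 7512 in shZDHHC15. Its level was 319 and 320 CPM in shCON and 374 and 383 CPM in shZDHHC15, so both shZDHHC15 samples were higher. The 1.18-fold rise (log2 fold change 0.24, standard error 0.0859, adjusted p = 0.0340 by edgeR) lost its call in 8 of 12 alternative analyses, including the omission of any 1 sample, while the log2 fold change stayed between 0.21 and 0.32.

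FOS (ENSG00000170345, chr14:75278774-75282230, plus strand), the classical immediate early gene, had 4876 and 4464 counts in shCON and 5660 and 5474 in shZDHHC15, or 267 and 265 CPM against 304 and 279 CPM. Its log2 fold change of 0.13 (standard error 0.0896, 95% interval -0.06 to 0.32) was not called (adjusted p = 0.26 by edgeR). FOSB (ENSG00000125740, chr19:45467995-45475179, plus strand), whose product closely resembles that of FOS, had 5944 and 5407 counts in shCON and 4774 and 6265 in shZDHHC15. Only shZDHHC15 sample 1 stood apart, at 256 CPM, whereas sample 2 at 319 CPM was next to the shCON samples at 326 and 321 CPM. The log2 fold change of FOSB was -0.17 (standard error 0.104, 95% interval -0.39 to 0.05, adjusted p = 0.214 by edgeR). Both intervals include 0 and exclude changes of the size seen for FOSL1.

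ATF3 (ENSG00000162772, chr1:212565334-212620777, plus strand), which as a homodimer represses transcription, had 3225 and 3047 counts in shCON and 975 and 1146 in shZDHHC15. The level was 177 and 181 CPM in shCON and 52.4 and 58.4 CPM in shZDHHC15, with close agreement within each group. The fall from 179 ± 2.65 to 55.4 ± 4.26 CPM was 3.23-fold (log2 fold change -1.69, standard error 0.1, adjusted p = 7.10e-09 by edgeR). Of all genes tested, 4.60% had a larger log2 fold change in either direction, against 9.10% for FOSL1 and 20.4% for JUN.

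EGR1 (ENSG00000120738, chr5:138465490-138469315, plus strand) had 2279 and 1998 counts in shCON and 2781 and 3147 in shZDHHC15. Its level was 125 and 118 CPM in shCON and 149 and 160 CPM in shZDHHC15, both samples higher. The 1.27-fold rise (log2 fold change 0.35, standard error 0.0942, adjusted p = 0.00835 by edgeR) was not called without shZDHHC15 sample 2 (log2 fold change 0.29, adjusted p = 0.118). FOSL2 and EGR1 were thus the members that rose, by 1.18-fold and 1.27-fold.

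**Figure D3:**
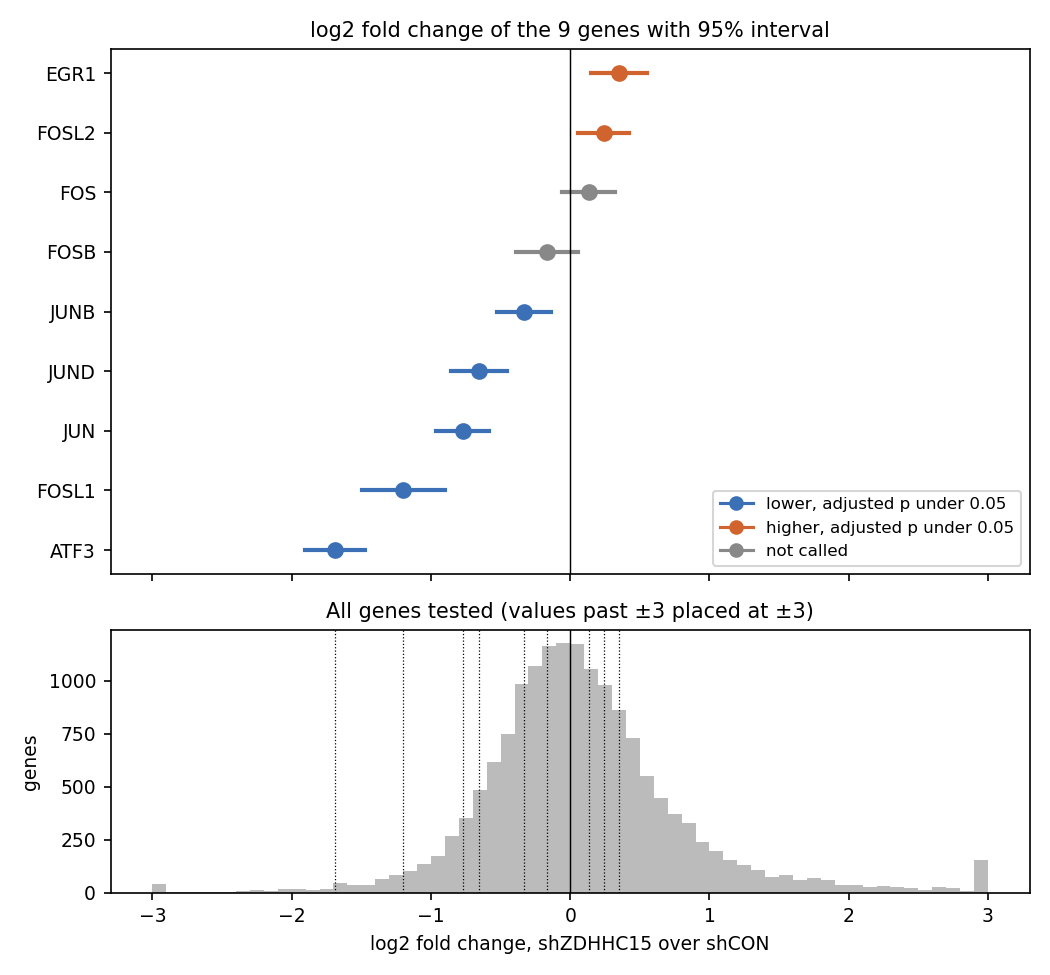
Log2 fold change, shZDHHC15 over shCON, of the 9 genes with 95% intervals from the edgeR fit (upper panel, blue called lower, orange higher, grey not called), above a histogram of the log2 fold changes of all 15817 genes tested in which dotted lines mark the 9 genes and values past ±3 are placed at ±3. The interval of ATF3 (-1.90 to -1.48) lies farthest below 0, and those of FOS and FOSB span 0.

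To compare levels between genes, counts were divided by the gene length in the table and scaled to the same total in each sample (TPM). That length counts every annotated exon base of a gene, from 1820 for JUNB to 7157 for FOSL2, so the order between genes depends on it. In shCON, JUN was highest at 705 ± 20.4 TPM (SD, n = 2), followed by JUNB at 619 ± 15.6, FOSL1 at 562 ± 7.20, JUND at 423 ± 11.7, FOS at 278 ± 12.8 and FOSB at 197 ± 10.0 TPM. FOSL2 (151 ± 5.37 TPM) and ATF3 (150 ± 3.59 TPM) overlapped, and EGR1 was lowest at 131 ± 10.1 TPM. All other neighbours in this order were separated in both samples. In shZDHHC15, JUNB was highest at 531 ± 20.9 TPM, before JUN at 445 ± 1.33 and FOS at 328 ± 20.3 TPM. JUND (290 ± 11.8 TPM) and FOSL1 (264 ± 73.9 TPM) overlapped, as did FOSL2 (192 ± 3.08 TPM) with FOSB (189 ± 28.9 TPM) and FOSB with EGR1 (180 ± 8.83 TPM), and ATF3 was lowest at 49.9 ± 3.79 TPM. All 9 genes were abundant transcripts in this line, from the 88.6th percentile of the TPM of all genes tested for ATF3 to the 98.6th for JUN and JUNB.

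The summed level of the 4 FOS genes was 1203 and 1173 TPM in shCON and 912 and 1033 TPM in shZDHHC15. That of the 3 JUN genes was 1714 and 1782 TPM in shCON and 1271 and 1261 TPM in shZDHHC15. Both sums were lower in shZDHHC15 without overlap, and the FOS to JUN ratio was 0.702 and 0.658 in shCON and 0.717 and 0.820 in shZDHHC15. Within the FOS genes, FOSL1 held 46.3% and 48.4% of the summed TPM in shCON and 23.2% and 30.6% in shZDHHC15. The share of FOS was 23.4 ± 0.668% in shCON and 33.9 ± 5.07% in shZDHHC15, that of FOSL2 12.7 ± 0.227% and 19.8 ± 1.43%, and that of FOSB 16.6 ± 0.549% and 19.3 ± 1.27%. Per length, FOSL1 led in both shCON samples and FOS in 1 of the shZDHHC15 samples, the other being at 30.3% for FOS and 30.6% for FOSL1. The ranking depends on this division, and without it FOSB led in shCON sample 1 (26.8%, FOSL1 24.9%), FOSL1 in shCON sample 2 (26.4%) and FOSL2 in both shZDHHC15 samples (35.8% and 33.4%). Within the JUN genes, JUN held 40.4 ± 0.0645% in shCON and 35.2 ± 0.320% in shZDHHC15, JUNB 35.4 ± 0.0743% and 41.9 ± 1.39%, and JUND 24.2 ± 0.0098% and 22.9 ± 1.07%. The JUNB share was larger in shZDHHC15 although its own level was lower. These shares carry no test.

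**Figure D4:**
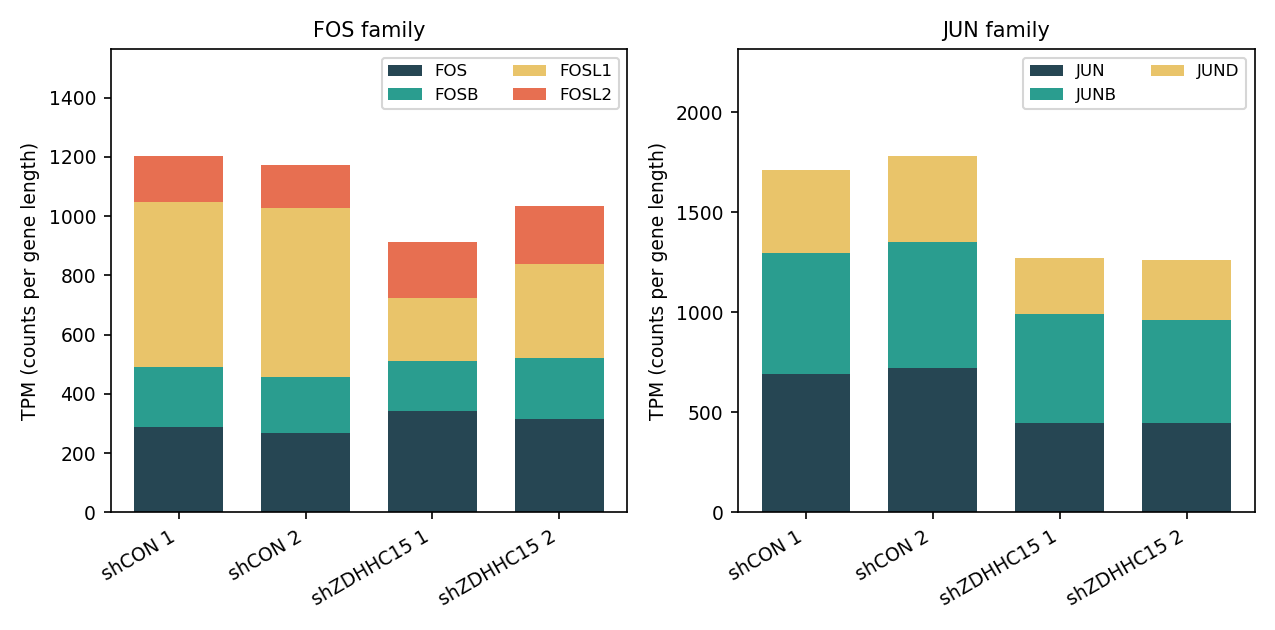
Summed TPM of the FOS genes and of the JUN genes in each of the 4 samples, stacked by gene, with the vertical axis in TPM from 0. The FOSL1 segment is 557 and 567 TPM in shCON and 212 and 316 TPM in shZDHHC15, and the JUN sum goes from 1748 ± 47.7 to 1266 ± 7.76 TPM.

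The remaining genes of the pathway were described from lists, by counts and medians alone. The lists were written with earlier results of these data known, so their shares beside all genes tested are a description alone. Of 23 other bZIP genes that can pair with or compete with AP-1, 5 were higher, 7 lower and 11 not called, with a median log2 fold change of -0.15. The share called was 52.2%, against 42.0% of all genes tested, and the split was 7 higher and 5 lower with library size only. BATF2, an interferon-inducible bZIP factor, had 49 and 41 counts in shCON and 468 and 419 in shZDHHC15 (log2 fold change 3.18, standard error 0.192, adjusted p = 8.94e-09 by edgeR). MAF, a large MAF factor, also rose, from 330 and 301 to 1039 and 941 counts (1.53, adjusted p = 2.46e-07 by edgeR). ATF4, the main factor of the integrated stress response, fell from 11389 and 11146 to 5768 and 6142 counts (-1.05, adjusted p = 2.93e-07), and shares near-identical stretches with its pseudogenes ATF4P3 and ATF4P4. MAFF, a small MAF factor without an activation domain, fell from 3483 and 3539 to 1640 and 2113 counts (-1.03, adjusted p = 3.45e-06). Of the 37 tested genes that the table's own annotation classes as bZIP, the 9 genes excluded, 43.2% were called (6 higher and 10 lower), close to the 42.0% of all genes tested.

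In the list of other immediate early genes, more were lower than higher. Of 28, 14 were lower (50%, against 20.3% of all genes tested), 3 higher and 11 not called, with a median log2 fold change of -0.51. ARC, a synaptic immediate early gene, had 287 and 278 counts in shCON and 45 and 66 in shZDHHC15 (log2 fold change -2.47, standard error 0.199, adjusted p = 2.08e-07 by edgeR). GEM, a small GTPase, had 205 and 183 counts in shCON and 51 and 63 in shZDHHC15 (-1.89, adjusted p = 4.15e-06). RHOB, a small GTPase induced by stress, fell from 2096 and 2162 to 756 and 880 counts (-1.51, adjusted p = 5.36e-08). PPP1R15A, which directs phosphatase to eIF2 alpha after stress, fell from 11016 and 11199 to 3533 and 5441 counts (-1.44, adjusted p = 1.10e-06). The 3 that rose, named after their values were seen, were IER5L (0.67, adjusted p = 3.87e-04), whose exons are overlapped by antisense genes, TRIB1 (0.46, adjusted p = 7.36e-04) and MCL1 (0.35, adjusted p = 0.00467), a survival factor whose call was lost without shZDHHC15 sample 1 (0.29, adjusted p = 0.104). In EGR1's own family, EGR4 was lower, except without shZDHHC15 sample 2 (log2 fold change -0.80, adjusted p = 0.0653), while EGR2 and EGR3 were not called.

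Of 32 upstream kinases and factors of the MAPK and SRF routes, 30 were tested, of which 6 were higher, 9 lower and 15 not called, with a median of -0.06. The share called was 50%, against 42.0% of all genes tested, with 20% higher against 21.7% and 30% lower against 20.3%. RPS6KA2 and RPS6KA3, kinases of the RSK family downstream of ERK, rose (log2 fold change 1.36, adjusted p = 1.80e-06, and 1.04, adjusted p = 2.53e-06, by edgeR). RPS6KA2 had 226 and 190 counts in shCON and 558 and 604 in shZDHHC15, and RPS6KA3 2349 and 1773 against 4618 and 4585. SRF, which binds CArG boxes, and its partners are outside the naming rule and moved in both directions. SRF (-0.72, adjusted p = 8.67e-05), ELK1 (-0.43, adjusted p = 0.00418) and MRTFA (-0.35, adjusted p = 0.00940) were lower, MRTFB was higher (0.59, adjusted p = 0.0136), and ELK3 (-0.06) and ELK4 (0.26) were not called. The call of MRTFA was lost without either shZDHHC15 sample, and that of MRTFB without shCON sample 2 or shZDHHC15 sample 1 and with no filter, at values down to 0.35. MAPK3, which encodes an ERK kinase, and the JNK genes MAPK8 and MAPK9 were not called. Without shZDHHC15 sample 1, the counts of the list were 2 higher and 4 lower, and without shZDHHC15 sample 2 they were 3 higher and 7 lower. These values are RNA levels and do not measure kinase activity.

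Among 12 cofactors and regulators of AP-1 and EGR1, 5 were higher, 2 lower and 5 not called, with a median of 0.11. The share called was 58.3%, against 42.0% of all genes tested, with 41.7% higher against 21.7% and 16.7% lower against 20.3%. None passed a log2 fold change of 1 in either direction. The coactivators NCOA3 (0.89, adjusted p = 2.42e-05 by edgeR) and NCOA1 (0.91, adjusted p = 1.80e-04) were higher. NCOA3 went from 2954 and 2231 to 5547 and 4874 counts, and NCOA1 from 284 and 225 to 555 and 482. The number of lower regulators was 1 without either shZDHHC15 sample.

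Genes known as AP-1 targets moved both ways, and the largest changes of either sign were larger than those of any of the 9 genes. Of 29 targets, 6 were higher, 10 lower and 13 not called, with a median of -0.23. The share called was 55.2%, against 42.0% of all genes tested, with 20.7% higher against 21.7% and 34.5% lower against 20.3%. MMP13, a collagenase, had 103 and 109 counts in shCON and 5879 and 4437 in shZDHHC15 (log2 fold change 5.48, standard error 0.175, adjusted p = 8.50e-12 by edgeR). PTGS2, the inducible cyclooxygenase, rose from 596 and 493 to 3385 and 3340 counts (2.51, adjusted p = 1.98e-10), and MMP1, a second collagenase, from 21 and 23 to 134 and 130 (2.45, adjusted p = 4.98e-06). SPP1, which is outside the naming rule and was named after its values were seen, passed the filter on low counts through shZDHHC15 alone. With 2 and 3 counts in shCON and 100 and 77 in shZDHHC15, it was at least 27.1-fold higher against the floor of 3 counts per library.

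In the opposite direction, VIM, the mesenchymal intermediate filament, fell from 950 and 885 counts to 93 and 161 (-2.98, standard error 0.170, adjusted p = 4.64e-09 by edgeR), and antisense genes overlap part of its exons. GADD45A, a growth arrest gene, fell from 3799 and 4199 to 1325 and 1863 counts (-1.46, adjusted p = 5.70e-07), and the cytokine IL11 from 338 and 330 to 103 and 181 (-1.36, adjusted p = 5.95e-05).

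**Figure D5:**
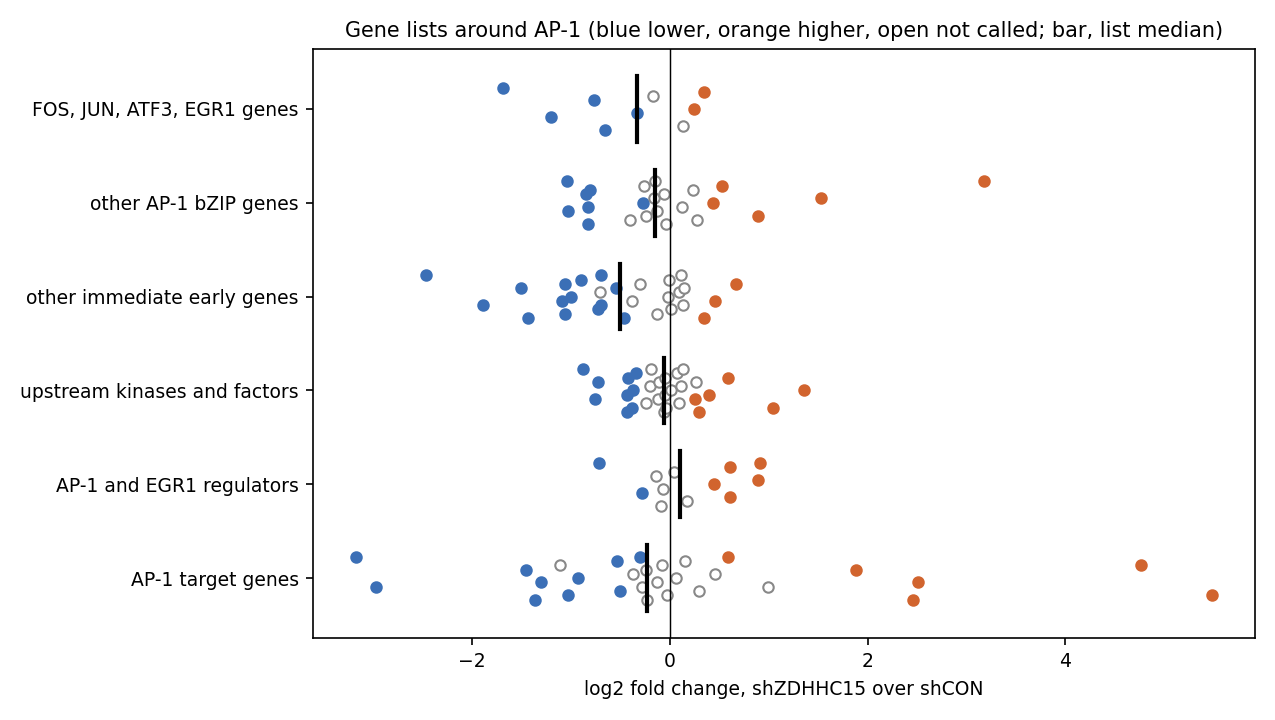
Log2 fold change (horizontal axis, shZDHHC15 over shCON) of each tested gene in the 9 genes and 5 lists, where blue points were called lower, orange points higher, open points were not called and black bars are list medians. SPP1 is drawn at its bound of 4.76 and MMP13 lies at 5.48, and the medians run from -0.51 in the other immediate early genes to 0.11 in the regulators.

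YAP1, the coactivator that acts beside AP-1, fell from 7764 and 7011 counts in shCON to 1024 and 1272 in shZDHHC15 (log2 fold change -2.81, standard error 0.105, adjusted p = 4.30e-11 by edgeR), with an antisense gene overlapping 9.97% of its exon bases. TEAD4 was lower (-0.46, adjusted p = 0.00250) and TEAD3 higher in 4 of 12 alternatives and the main comparison (0.28, adjusted p = 0.0498), whereas TEAD1 (-0.24, adjusted p = 0.0970), TEAD2 (0.08, adjusted p = 0.626) and WWTR1, which encodes TAZ (-0.08, adjusted p = 0.616), were not called. TEAD3 was not called without shCON sample 2 or without either shZDHHC15 sample, with a log2 fold change of 0.18 and adjusted p = 0.428 without shZDHHC15 sample 1.

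For each of the 9 genes, the protein-coding gene whose pattern over the 4 samples was most alike was found among 8963 genes whose counts averaged 200 or more. Likeness was the root mean square difference of centred log2 CPM, in which smaller is more alike. FOSL1 and ATF3 had few genes near them, 17 and 9 within 0.1. The nearest to FOSL1 was KRT16 at 0.0236, a stress keratin that shares near-identical stretches with KRT14 and pseudogenes. The nearest to ATF3 was OLR1, a scavenger receptor, at 0.0417. JUN was nearest to MIEN1 (0.00603), whose exons overlap those of ERBB2, JUNB to ADK (0.00829) and JUND to VPS72 (0.00434), which shares exons with TMOD4. FOS was nearest to SARAF (0.00139), FOSB to BTNL9 (0.0229), FOSL2 to MLEC (0.00421) and EGR1 to SELENON (0.00922). Between 408 and 1637 genes lay within 0.1 of these 7, so with 4 samples the nearest gene is 1 of many.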

How the data were processed

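The authors deposited 1 table of raw read counts per gene, not normalized, for 58735 genes in 2 shCON and 2 shZDHHC15 samples, from NEBNext Ultra libraries of total RNA. The submitters' processing notes name HISAT2, StringTie, SAMtools and hg38, and the counting tool, the annotation and the strand setting are not given in the sources used here. All 58735 identifiers had the same start and end in GENCODE 29 (GRCh38). The table uses MRTFA, MRTFB and COP1 for MKL1, MKL2 and RFWD2. Totals ranged from 17560982 to 19118704 counts, and replicates of a group differed by more than counting noise (chi-square per degree of freedom 8.32 and 6.79). Genes passing filterByExpr (15817) were fitted in edgeR 4.0.16 (R 4.3.3, limma 3.58.1) with TMM factors, glmQLFit and glmQLFTest with Benjamini-Hochberg adjustment, on group alone. The fit was run on data simulated from its own model with few genes changed, a check of the code and not of these calls. Exon overlaps came from GENCODE and near-identical stretches (at least 150 bases, 97% identity) from blastn 2.17.0. The likeness used log2 of CPM plus 0.5. The members and lists were chosen with earlier results of these data known. Genes named beside the 9 were those of a list with an adjusted p under 0.05, a log2 fold change beyond 1 and a mean of at least 50 counts, at most 4 in each direction, or, if none, the 2 smallest adjusted p. The 6 YAP, TAZ and TEAD genes and the nearest genes were also named, and some results under this rule are not reported here. Alternatives were DESeq2 1.42.0 (size factors, Wald test), library size, upper-quartile factors, the legacy quasi-dispersion, no filter, a minimum of 10 counts per sample, the replicate block, leaving out each sample, and shares without length.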

Additional observations from a re-analysis of the deposited data

How the results depend on the processing

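None of the 9 fold changes changed direction under an alternative, while the balance of higher and lower calls did. All genes went from 3427 higher and 3217 lower to 3202 and 3458 with upper-quartile factors, 2645 and 2704 with the DESeq2 Wald test, 2282 and 2350 with no filter, 3406 and 3476 without shCON sample 1 and 2815 and 2897 without shCON sample 2, against 3926 and 2545 with library size only. The bZIP list went from 5 higher and 7 lower to 7 and 5 with library size only. The median of the upstream list went from -0.06 to 0.02 with library size only. ATF3, FOSL1, JUN and JUND were called and FOS and FOSB were not called in all 12 alternatives, with log2 fold changes of -1.78 to -1.62 (ATF3), -1.52 to -0.94 (FOSL1), -0.87 to -0.70 (JUN), -0.75 to -0.58 (JUND), 0.07 to 0.21 (FOS) and -0.34 to -0.02 (FOSB). FOSL2 lost its call in 8 of 12, at 0.21 to 0.32. The 2 members called higher became 1 with the DESeq2 Wald test, DESeq2 size factors, upper-quartile factors or no filter on low counts, and 0 to 1 when a sample was left out, 0 without shZDHHC15 sample 2. With no filter, 2 upstream genes were called higher. Leaving out a sample gave 2 to 5 upstream genes higher, 4 to 8 lower, and 1 to 2 regulators lower, which was also 1 with library size only. TEAD3, the 1 higher gene of the YAP, TAZ and TEAD list, became 0 with the same 4 settings, the legacy quasi-dispersion and without shCON sample 2 or either shZDHHC15 sample (range 0 to 1). The cause was not tested. In the fits that leave a sample out, the lone sample of a group is assumed to vary like the other group. Their median total degrees of freedom were 16532 to 16757, against 14.8 in the main fit. The spread was thus shared fully among genes, and calls in these fits do not measure a gene's own spread.

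Samples with the same number share no stated origin, and their deviations correlated at 0.136 over 11961 genes. With the replicate block, 2 of the 9 genes were higher and 5 lower, as without it, and 3723 and 3502 genes were called higher and lower. Without division by gene length, FOSL1 held 25.7% of the FOS genes in shCON and 12.4% in shZDHHC15, FOSL2 26.1% and 34.6%, and JUN 56.6% and 51.1% of the JUN genes. With library size only, the median log2 fold change of all genes was 0.09. With 2 samples a group, small changes such as those of FOS and FOSB could not be told from none.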
